A study of Mus musculus with 2 samples.

Results

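The immunity-related GTPases (IRG) Iigp1, Igtp, Irgm1 and Irgm2 and the guanylate-binding proteins (GBP) Gbp2, Gbp3, Gbp4, Gbp5, Gbp7 and Gbp9 were followed in single nuclei of mouse sarcomas. They were taken by symbol from the feature table, where all 10 were found among 19059 genes, and they had been chosen by their levels in untreated and Minnelide tumors, as known from earlier work on these data. Tumors came from dFLEx CDS mice, in which the CAG promoter drives the CIC::DUX4 fusion gene once Cre and FLP plasmids have been electroporated into hind limb muscle. The untreated group held 4 tumors without treatment, labelled dFLEx CDS +/-. The other group held 4 tumors of dFLEx CDS mice given 0.42 mg/kg Minnelide, a water-soluble prodrug of triptolide, for 21 days, and its label gives no zygosity. Triptolide blocks a helicase of the general transcription machinery, and the comparison asks what differs in tumors of treated mice. The labels give neither age nor sex, and the study's methods place tumor induction in young adult mice and include both sexes. Each count matrix was taken as 1 tumor and as the unit of replication, numbers within a group serve only as names, and nothing shows that the tumors of a group were processed on separate days.

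IRG and GBP proteins are large GTPases of cell-autonomous immunity that interferons, interferon gamma above all, induce in almost any cell type. Effector IRG such as Iigp1 load onto the membrane of a pathogen vacuole and break it, while the regulatory IRG, Igtp (also called Irgm3), Irgm1 and Irgm2, sit on the cell's own membranes and keep the effectors off them. GBP assemble as coats on vacuoles and bacteria, with several members feeding into inflammasome activation. In tumors their transcripts are widely used as a readout of interferon exposure.

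The matrices held 18487409 to 73211599 unique molecular identifiers (UMI, one per captured RNA molecule) per tumor in 5210 to 12615 nuclei, of which 4470 to 10368 were retained. Untreated tumor 4 was shallow, with a median of 883 UMIs per nucleus. Levels below are CPM, the usual depth-scaled UMI count of a gene over the summed nuclei. The tumor markers Etv1, Etv4, Etv5, Shc3 and Shc4 summed to between 7048 and 14657 CPM in all nuclei of every tumor. Nuclei fell into 31 clusters, named "-like" from marker lists, and 12 of the 14 tumor-like clusters and 1 of the 2 endothelial-like clusters drew over 90% of their nuclei from 1 tumor. Untreated tumor 1 stood apart. Its tumor-like nuclei held 3832 summed CPM of 11 endothelial markers against 456 to 878 in the other tumors, 172 CPM of B cell markers against 2.11 to 8.48, 916 CPM of macrophage markers against 205 to 420 and 191 CPM of T/NK markers against 24.6 to 93.8. It was also the only tumor with T/NK-like nuclei (93), and 1768 of its nuclei stayed unnamed. The study describes a group of tumor cells with endothelial features (Pecam1, Erg, Cdh5), found in 1 of 4 tumors. The labels do not say which tumor that was, and whether it is untreated tumor 1 was not tested. In every tumor each of the 11 endothelial markers was above 0 in tumor-like nuclei. The part of these markers in the results was not tested, so results that rest on untreated tumor 1 are also given without it. Each untreated tumor shared 49 to 132 nucleus barcodes with 1 Minnelide tumor and 0 with the others. The tumors of such a pair carried the same barcode bases 8 and 9, which differed among the tumors of a group. Shared barcodes thus mark no known run or pairing. The labels name no run, so run and treatment cannot be told apart.

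Of the 10 genes, 9 lie in 4 places of the GRCm39 genome (GENCODE M39 annotation). Gbp5 (chr3:142199739-142228105), Gbp7 (chr3:142236044-142255910), Gbp3 (chr3:142265731-142278979) and Gbp2 (chr3:142326349-142343779) follow each other on the plus strand of chromosome 3. Gbp9 (chr5:105224332-105287452) and Gbp4 (chr5:105263633-105287609) overlap each other and Gbp8 on the minus strand of chromosome 5. Irgm1 lies at chr11:48752795-48763164 on the minus strand, while Igtp (chr11:58089840-58098417) and Irgm2 (chr11:58090444-58113615) overlap on the plus strand of the same chromosome. Overlap on 1 strand makes the split of counts between Gbp4 and Gbp9, and between Igtp and Irgm2, uncertain, since reads inside introns were counted too.

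RefSeq promoters (GRCm38.p6, 250 bases before to 50 after the start) were at hand for 7 of the 10 genes, with Gbp3 entered at 2 starts, and none was matched for Iigp1, Gbp4 and Gbp9. They are shown because the genes are read here as one interferon-inducible family, and interferon acts through short promoter motifs. The motifs searched on both strands were GAAA followed, after any 2 bases, by GAAA (a core of the interferon-stimulated response element) and TTCNNNGAA (a core of the gamma-activated site), and matches could overlap. The first stood in 7 of the 8 member promoters and in 3.44% of all 32851 promoters. The second stood in 4 of the 8, those of Gbp5, Gbp7, Igtp and Irgm2, and in 8.30% of all promoters. Both together stood in 0.454% of all promoters. A match is a description of letters and not of binding. The 250 upstream bases of 5 members follow, each 5′ to 3′ on the gene's strand, with every match in capitals. They cover chr3:142530086-142530335 (plus), chr3:142620413-142620662 (plus), chr11:48871421-48871670 (minus), chr11:58199306-58199555 (plus) and chr11:58214727-58214976 (plus) of GRCm38.p6.
Gbp7: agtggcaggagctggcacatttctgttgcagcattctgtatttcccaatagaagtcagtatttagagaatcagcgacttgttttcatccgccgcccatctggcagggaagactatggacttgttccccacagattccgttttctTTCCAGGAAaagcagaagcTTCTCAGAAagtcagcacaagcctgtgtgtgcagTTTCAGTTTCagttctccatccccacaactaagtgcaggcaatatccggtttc
Gbp2: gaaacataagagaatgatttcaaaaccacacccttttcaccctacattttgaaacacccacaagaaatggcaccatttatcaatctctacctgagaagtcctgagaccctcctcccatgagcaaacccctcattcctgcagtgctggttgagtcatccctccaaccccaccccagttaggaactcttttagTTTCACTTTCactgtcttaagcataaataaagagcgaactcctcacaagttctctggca
Irgm1: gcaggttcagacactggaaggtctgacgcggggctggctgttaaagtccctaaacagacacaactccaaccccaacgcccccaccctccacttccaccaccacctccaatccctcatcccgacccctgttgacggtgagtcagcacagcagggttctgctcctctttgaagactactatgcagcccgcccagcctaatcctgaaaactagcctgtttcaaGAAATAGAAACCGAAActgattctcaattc
Igtp: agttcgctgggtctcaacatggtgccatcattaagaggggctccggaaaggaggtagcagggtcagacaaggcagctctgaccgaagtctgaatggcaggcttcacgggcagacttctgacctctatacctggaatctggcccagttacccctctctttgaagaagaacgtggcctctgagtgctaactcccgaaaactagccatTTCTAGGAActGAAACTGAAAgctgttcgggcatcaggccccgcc
Irgm2: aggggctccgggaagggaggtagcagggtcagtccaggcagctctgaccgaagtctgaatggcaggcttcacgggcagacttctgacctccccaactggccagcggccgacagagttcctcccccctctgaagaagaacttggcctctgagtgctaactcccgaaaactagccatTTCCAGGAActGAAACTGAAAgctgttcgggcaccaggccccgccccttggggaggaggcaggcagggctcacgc
The first motif began 53 bases before the start in Gbp7, 59 in Gbp2, 34 in Igtp and 64 in Irgm2, and Irgm1 held 2 overlapping matches, 30 and 24 bases before it. In Igtp and Irgm2 the second motif stood directly upstream of the first, 45 and 75 bases before the start, and their windows shared an unbroken run of 55 bases. The second start entered for Gbp3 held neither motif.

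Iigp1, an effector IRG, had the largest log2 difference between the groups of the 10 genes. It lies alone, at chr18:60506680-60525706 on the plus strand of GRCm39. In all retained nuclei it stood at 38.5, 31.3, 21.6 and 11.3 CPM in untreated tumors 1 to 4 and at 3.39, 5.56, 3.59 and 5.40 CPM in Minnelide tumors 1 to 4. Every untreated tumor was above every Minnelide tumor. The means were 25.7 CPM ± 11.8 (SD, n = 4) and 4.49 CPM ± 1.15 (SD, n = 4), and 94 to 1954 UMIs stood behind each value. The members were chosen with this contrast known, so the group values are a description. In sums over all nuclei, fewer nuclei of a class and less RNA per nucleus cannot be told apart.

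Of the regulatory IRG, Irgm1 had separate groups and Igtp and Irgm2 did not. Irgm1, which also acts in autophagy and at mitochondria, had 10.5, 6.59, 4.91 and 4.06 CPM in the untreated and 2.16, 3.99, 2.77 and 3.33 CPM in the Minnelide tumors. The lowest untreated and the highest Minnelide tumor lay close, at 4.06 and 3.99 CPM. Igtp had 5.33, 2.43, 1.18 and 1.06 CPM without treatment and 0.688, 0.769, 0.659 and 1.38 CPM with Minnelide, where tumor 4 was above 2 untreated tumors. Irgm2 read 20.5, 10.4, 6.36 and 7.31 CPM in untreated against 2.03, 11.3, 2.72 and 5.46 CPM in Minnelide tumors. Minnelide tumor 2, second only to untreated tumor 1, had 50.5% myocyte-like nuclei, and its tumor-like nuclei held 4.35 CPM of Irgm2. The part of its myocyte-like nuclei in the 11.3 CPM was not tested.

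Among the GBP of chromosome 3, Gbp2, which coats pathogen vacuoles, had 7.44, 3.63, 2.47 and 2.56 CPM in untreated tumors and 0.864, 1.17, 0.791 and 1.78 CPM in Minnelide tumors. It was the only GBP without overlap between the groups. Gbp5, known for promoting NLRP3 inflammasome assembly, had 12.1, 4.39, 3.26 and 1.56 CPM against 0.880, 1.65, 1.08 and 0.804 CPM. Here untreated tumor 4 fell just inside the Minnelide range. Gbp7 showed the same overlap, with 23.3, 11.4, 11.0 and 4.94 CPM in untreated and 4.06, 3.37, 3.88 and 5.17 CPM in Minnelide tumors. Gbp3 had 6.44, 2.43, 3.34 and 1.06 CPM without the drug and 0.880, 0.586, 0.976 and 1.78 CPM with it.

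The chromosome 5 pair overlapped between the groups as well. Gbp4 was measured at 8.80, 3.72, 6.20 and 3.06 CPM in the untreated and at 1.34, 1.903, 1.58 and 3.33 CPM in the Minnelide tumors. Gbp9 was measured at 10.6, 3.15, 5.34 and 2.69 CPM and at 2.14, 2.67, 2.24 and 3.04 CPM in the same order. For both genes untreated tumor 4 lay below Minnelide tumor 4. Across all 10 genes, 3 (Iigp1, Irgm1 and Gbp2) had every untreated tumor above every Minnelide tumor, where 6.93% of all 13811 genes tested did, and 0 had the opposite order, which 0.652% of all genes had. Since this contrast chose the genes, nothing is read from that count.

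**Figure D1:**
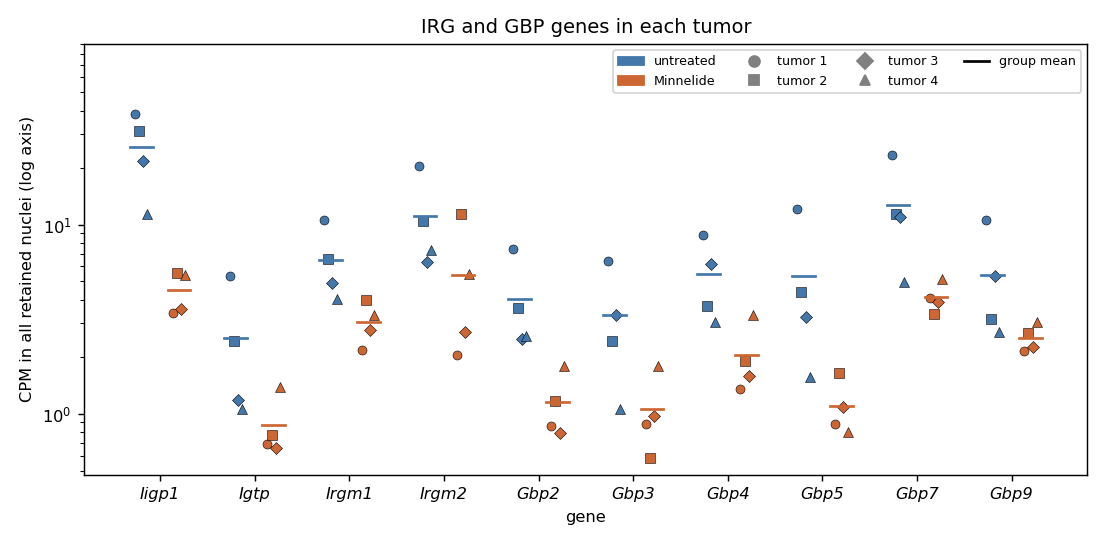
CPM of each gene in all retained nuclei (log axis), 1 point per tumor, with color for the group and marker shape for the tumor number, and bars at the group means. Iigp1 runs from 11.3 to 38.5 CPM in untreated and from 3.39 to 5.56 CPM in Minnelide tumors, and untreated tumor 1 (circles) has the top untreated value of all 10 genes.

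The summed level of the 10 genes gave 143.5, 79.4, 65.6 and 39.6 CPM in untreated tumors and 18.4, 33.0, 20.3 and 31.5 CPM in Minnelide tumors, with means of 82.0 ± 44.2 (SD, n = 4) and 25.8 ± 7.49 (SD, n = 4). The log2 ratio of the means was -1.67, and -1.25 without untreated tumor 1. The study chose Minnelide tumors of favorable and of poor response, and the labels do not say which is which. In the file names Minnelide tumors 1 and 2 carry the word responder and tumors 3 and 4 nonresponder. The sums were 18.4 and 33.0 CPM under the first word and 20.3 and 31.5 CPM under the other, so both ranges covered almost the same span. Iigp1 read 3.39 and 5.56 CPM under responder and 3.59 and 5.40 CPM under nonresponder. With 2 tumors a word the smallest exact permutation p would be 0.333, and no test was made.

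Fitted with edgeR over all genes, Minnelide against untreated gave log2 fold changes below 0 for all 10 genes, from -2.34 ± 0.37 (SE) for Iigp1 and -2.06 ± 0.58 for Gbp5 to -0.91 ± 0.33 for Irgm1 and -0.86 ± 0.58 for Irgm2. Between them lay Gbp2 (-1.63 ± 0.43), Gbp3 (-1.48 ± 0.55), Gbp7 (-1.43 ± 0.40), Igtp (-1.34 ± 0.54), Gbp4 (-1.25 ± 0.42) and Gbp9 (-0.92 ± 0.41). The median was -1.39 for the members and 0.01 for all genes. No gene of 13811 passed an adjusted p of 0.05 in edgeR, a background of 0.0%, and the members' adjusted p ran from 0.398 to 0.629. At an unadjusted p of 0.05, 1376 genes passed, 1035 of them lower (7.49% of all), with 8 of the 10 members among the lower ones. That count fell to 5 without untreated tumor 1, Minnelide tumor 1 or Minnelide tumor 3, and without untreated tumor 1 the member median was -1.03. DESeq2 called 181 genes (1.31%), 157 of them lower (1.14%), and these held Gbp2, Gbp5, Gbp7 and Iigp1. The same contrast chose the members, so these counts are shown for description only.

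**Figure D2:**
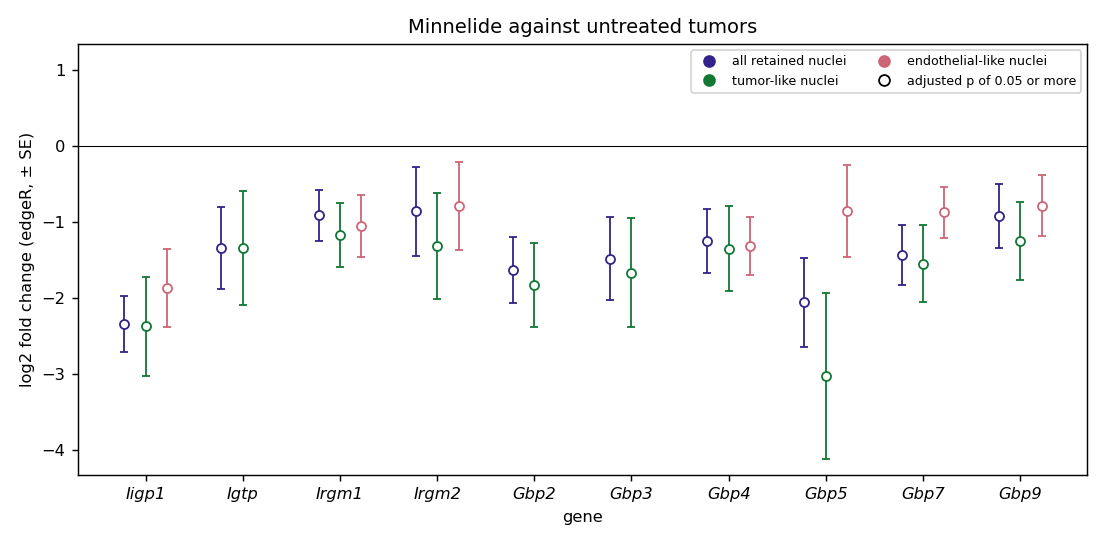
Log2 fold change of each gene, Minnelide against untreated, with its standard error, in all retained, tumor-like and endothelial-like nuclei (edgeR). Open symbols have an adjusted p of 0.05 or more, which is every point. All fall below 0, and the tumor-like bar of Gbp5 is the widest, at -3.03 ± 1.09.

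Within tumor-like nuclei the picture turned on untreated tumor 1. Iigp1 had 35.8 CPM there, 6.41, 7.68 and 7.23 CPM in untreated tumors 2 to 4 and 1.51, 4.35, 1.41 and 2.80 CPM in the Minnelide tumors. Gbp7 had 23.3 CPM in untreated tumor 1, then 5.93, 6.76 and 4.00 CPM, and 2.62, 3.48, 2.58 and 3.36 CPM with Minnelide. For both genes the groups did not overlap. Leaving out untreated tumor 1, the highest untreated tumor, could not change that. Untreated tumor 4 is a weak point here. It gave 95.6% of a tumor-like cluster of 6330 nuclei with a median of 755 UMIs. Beside the tumor markers, that cluster had raised levels of 8 of 12 myocyte, 6 of 12 fibroblast and 4 of 11 endothelial markers. The part of this mixture in the values of untreated tumor 4 was not tested. Gbp5 read 14.0, 1.70, 2.41 and 1.52 CPM in untreated and 0.333, 1.52, 0.637 and 0.00 CPM in Minnelide tumors, where tumor 4 had 0 of its tumor-like UMIs from Gbp5, which allows up to 0.210 CPM. The lowest untreated and the highest Minnelide value of Gbp5 rest on 16 and 7 UMIs and are equal to 3 digits. Of the 10 genes, 5 (Iigp1, Irgm1, Gbp2, Gbp5 and Gbp7) had no overlap, against 6.48% of the 13022 genes tested, and 0 had the opposite order, against 1.05%. The genes were chosen by their untreated against Minnelide levels, so nothing is read from that count.

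Summed over the 10 genes, tumor-like nuclei gave 138.8, 31.6, 32.8 and 26.7 CPM in untreated and 11.3, 22.0, 12.2 and 18.6 CPM in Minnelide tumors. The log2 ratio of the group means was -1.84, and -0.92 without untreated tumor 1. With nuclei of at least 1000 UMIs the sums of the groups overlapped, since the lowest untreated tumor read 18.4 and the highest Minnelide tumor 20.6 CPM. Without doublet removal these read 18.7 and 25.5 CPM. The edgeR estimates ran from -3.03 ± 1.09 for Gbp5 and -2.37 ± 0.65 for Iigp1 to -1.18 ± 0.42 for Irgm1, with a median of -1.45 against -0.01 over all genes, and the member median was -0.81 without untreated tumor 1. In tumor-like nuclei 0 of 13022 genes (0.0%) were called in edgeR, 1292 had an unadjusted p under 0.05, 985 of them lower (7.56%, with 8 of the 10 members among them), and DESeq2 called 103 (0.791%), Iigp1 included. The count of members fell to 4 without untreated tumor 1, to 3 without Minnelide tumor 1 and to 5 without Minnelide tumor 3. The group contrast chose the members, so these counts are shown for description only.

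Which cells carried these transcripts was asked across classes of nuclei from the same tumors. The genes were chosen by their levels in the 2 groups, with earlier results of these data known. Whether levels by class played a part in that choice is not stated. Neither the 10 genes nor the interferon lists entered the clustering. The classes were made from the same nuclei, so a p-value compares classes so defined. Among the classes with at least 50 nuclei in 7 or 8 tumors, endothelial-like nuclei had the highest mean summed level, 160.6 CPM over 8 tumors, followed by myocyte-like (148.1), macrophage-like (117.5), pericyte-like (82.3, 7 tumors), fibroblast-like (69.0), osteoclast-like (49.1, 7 tumors) and tumor-like nuclei (36.7). Neighbors in this order overlapped across tumors, and without untreated tumor 1 myocyte-like nuclei came first (156.2 CPM against 135.1 in endothelial-like and 22.2 in tumor-like nuclei). The myocyte-like mean leaned on untreated tumor 2, with 629.8 CPM from 183 nuclei, of which Iigp1 made up 408 CPM (239 UMIs). That tumor gave 28.0% of a mixed myocyte-like cluster of 246 nuclei with a median of 1365.5 UMIs. Beside 12 of 12 myocyte markers, the cluster had raised levels of 10 of 11 endothelial and 7 of 12 fibroblast markers. The part of this mixture in the myocyte-like levels was not tested. T/NK-like nuclei, found only in untreated tumor 1, held 330.5 CPM (93 nuclei), close to the endothelial-like nuclei of that tumor. Their cluster was mixed, at a median of 1437 UMIs. Beside 11 of 14 T/NK markers it had raised levels of 7 of 7 B cell, 11 of 12 myocyte and 11 of 11 endothelial markers. The part of each cell type in this level was not tested. In endothelial-like nuclei the untreated tumors read 338.6, 212.4, 259.3 and 89.5 CPM and the Minnelide tumors 79.7, 131.4, 66.2 and 107.3 CPM. Tumor-like nuclei, many in number, held 11.2 to 66.1% of the members' UMIs in a tumor, beside 16.8 to 82.0% of its UMIs of all genes. In every tumor the members' share was the lower one.

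**Figure D3:**
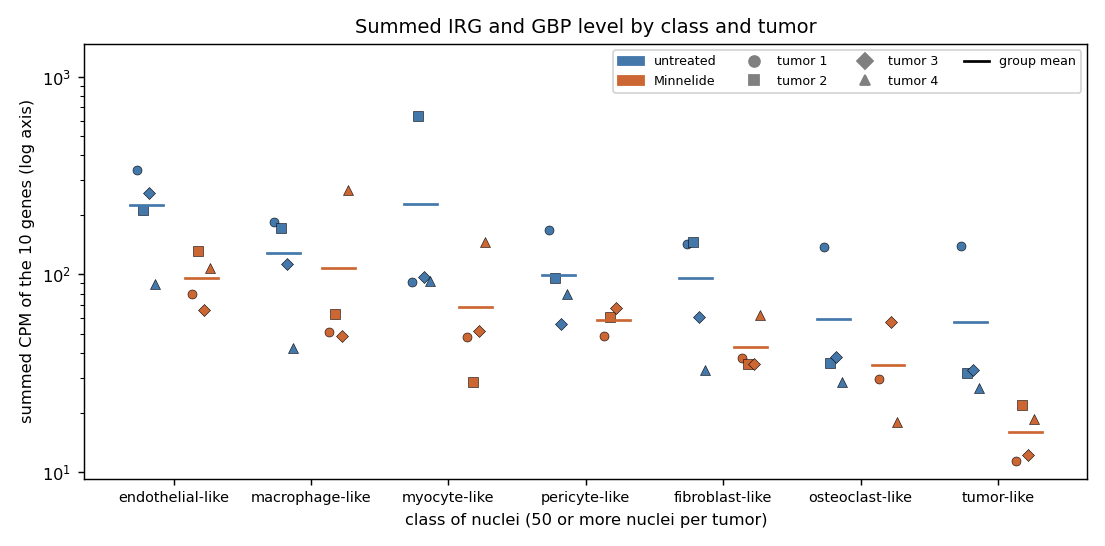
Summed CPM of the 10 genes (log axis) in each class of nuclei, 1 point per tumor with at least 50 nuclei of the class, with color for the group, marker shape for the tumor number and bars at the group means. Endothelial-like nuclei run from 66.2 to 338.6 CPM and tumor-like nuclei from 11.3 to 138.8 CPM, and single tumors stand far above their group in myocyte-like (629.8), macrophage-like (266.2) and tumor-like (138.8) nuclei.

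Against tumor-like nuclei of the same tumors (edgeR, tumor as a block), all 10 genes were higher in endothelial-like nuclei. This stood beside a background of 44.5% of 12639 genes called, 22.4% called higher. Gbp4 had the largest difference, log2 3.41 ± 0.21 (SE, adjusted p = 4.11e-07), then Gbp9 with 2.99 ± 0.23 (adjusted p = 2.13e-06) and Iigp1 with 2.89 ± 0.24 (adjusted p = 3.39e-06). Gbp4 read 59.5, 29.3, 39.2 and 16.3 CPM in endothelial-like nuclei of untreated and 10.3, 11.9, 13.5 and 22.0 CPM in those of Minnelide tumors. The tumor-like nuclei of untreated tumors 1 to 4 had 7.84, 1.77, 3.61 and 2.57 CPM of it and those of Minnelide tumors 0.842, 2.61, 0.805 and 1.61 CPM. Gbp4 and Gbp9 were higher in endothelial-like nuclei in 8 of 8 tumors, also against fibroblast-like and myocyte-like nuclei. Against macrophage-like nuclei, Gbp4 was higher in 8 of 8 and Gbp9 in 7 of 8 tumors.

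The other 7 genes called in endothelial-like nuclei had log2 differences from 1.21 to 2.20. Gbp3 (2.20 ± 0.34), Gbp5 (1.98 ± 0.56), Irgm1 (1.93 ± 0.24), Gbp7 (1.91 ± 0.21) and Gbp2 (1.74 ± 0.35) lay close together, above Irgm2 (1.47 ± 0.28) and Igtp (1.21 ± 0.37). The call of Igtp, at an adjusted p of 0.0204 in edgeR, was lost without Minnelide tumor 1 (adjusted p = 0.0700) and without Minnelide tumor 4 (adjusted p = 0.0505). Higher levels in endothelial-like nuclei were seen in 8 of 8 tumors for 7 genes, in 7 for Igtp and Gbp2 and in 6 for Gbp5. Endothelial-like nuclei also held 1617 to 9999 summed CPM of the tumor markers, beside 11566 to 16182 CPM in tumor-like nuclei, and the part of tumor RNA in these levels was not tested.

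In macrophage-like nuclei 8 of the 10 genes were higher than in tumor-like nuclei, beside 38.8% of 12797 genes called and 17.8% called higher. Gbp5 had the largest estimate, 2.51 ± 0.80 (adjusted p = 0.0213), and Gbp7 the best measured one, 1.74 ± 0.27 (adjusted p = 0.000116). Gbp3 (2.00 ± 0.49), Irgm1 (1.72 ± 0.34), Iigp1 (1.67 ± 0.45), Igtp (1.61 ± 0.53), Gbp9 (1.42 ± 0.44) and Irgm2 (1.40 ± 0.31) were called as well. Gbp2 (1.24 ± 0.57, adjusted p = 0.0999) and Gbp4 (0.20 ± 0.50, adjusted p = 0.80) were not, and the Gbp4 estimate fell below 0 without doublet removal (-0.066) or without Minnelide tumor 4 (-0.054). The class was small, with 72 to 491 nuclei per tumor. Leaving out 1 tumor left 5 to 9 members called. Gbp5 was lost without untreated tumor 2 or Minnelide tumor 1, Gbp9 without Minnelide tumor 1 and Igtp without Minnelide tumor 1, 2 or 4, while Gbp2 was gained without untreated tumor 1.

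In fibroblast-like nuclei 6 of the 10 were higher than in tumor-like nuclei, beside 49.2% of 13524 genes called and 23.5% called higher. These were Iigp1 (1.70 ± 0.37, adjusted p = 0.00316), Irgm2 (1.30 ± 0.23, adjusted p = 0.000798), Gbp2 (1.21 ± 0.32), Gbp7 (0.96 ± 0.21), Gbp3 (0.90 ± 0.31, adjusted p = 0.0314) and Irgm1 (0.82 ± 0.22). Gbp5 (1.38 ± 0.56, adjusted p = 0.0633), Igtp (0.61 ± 0.36), Gbp4 (-0.05 ± 0.47) and Gbp9 (-0.39 ± 0.28) did not pass. The call of Gbp3 was lost without any 1 of untreated tumors 2, 3 and 4 and Minnelide tumors 1 and 3. The estimate of Gbp4 turned above 0 without untreated tumor 1 (0.21), untreated tumor 4 (0.08) or Minnelide tumor 2 (0.19). The chromosome 5 pair, with the largest differences in endothelial-like nuclei, had estimates below 0 here.

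**Figure D4:**
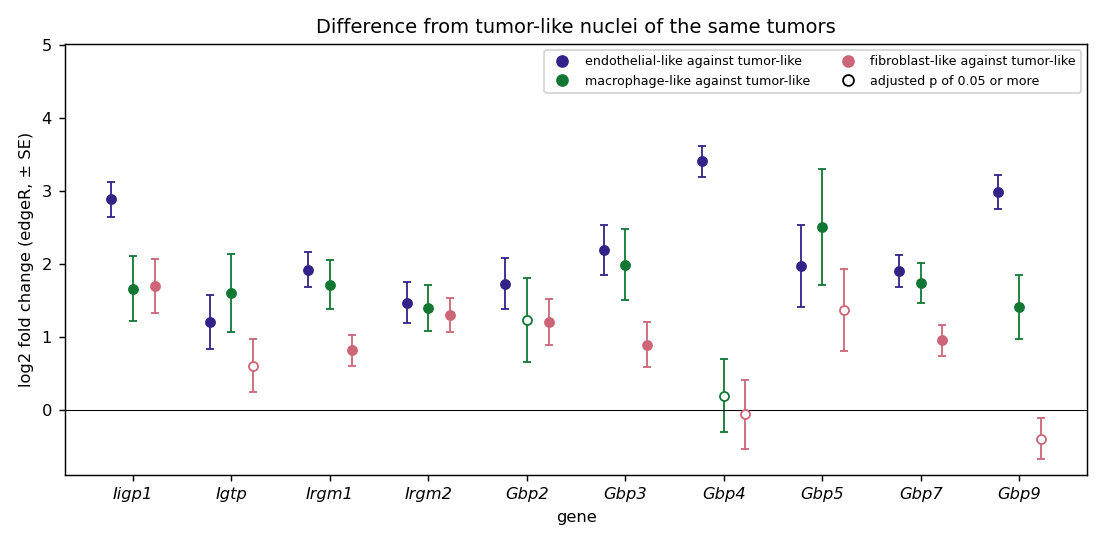
Log2 fold change of each gene against tumor-like nuclei of the same tumors, with its standard error (edgeR), for endothelial-like, macrophage-like and fibroblast-like nuclei. Filled symbols have an adjusted p under 0.05. All 10 endothelial-like points are filled, from 1.21 (Igtp) to 3.41 (Gbp4), while Gbp4 and Gbp9 sit at -0.05 and -0.39 in fibroblast-like nuclei.

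Irgm2 followed another order. In myocyte-like nuclei it stood at 26.0, 99.0, 21.0 and 34.2 CPM in untreated and 16.0, 12.2, 21.3 and 88.5 CPM in Minnelide tumors, above tumor-like nuclei in 8 of 8 and above endothelial-like nuclei in 7 of 8 tumors. The last of these classes held 63 nuclei. No fit was made for myocyte-like nuclei, so this is a description. Myocyte-like nuclei had been named as the class of least expected expression, and these levels go against that. Some myocyte-like clusters also had raised markers of other classes, and the part of that mixture was not tested.

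Between the groups, 6 of the 7 members tested overlapped in endothelial-like nuclei. Iigp1 read 116, 70.8, 96.5 and 27.1 CPM without and 17.4, 42.3, 7.93 and 19.5 CPM with Minnelide, where untreated tumor 4 lay inside the Minnelide range. Gbp9 read 41.6, 23.3, 35.3 and 9.49 CPM against 11.4, 21.1, 12.6 and 19.5 CPM. Irgm1 alone had no overlap, with 17.9, 21.2, 12.7 and 12.2 CPM in untreated and 3.16, 8.27, 7.46 and 12.2 CPM in Minnelide tumors, though the closest pair is equal to 3 digits and rests on 9 and 15 UMIs. That was 1 of the 7 members tested in this class, against 4.7% of 9671 genes in this direction and 3.75% in the other. As the group contrast chose the members, this count and those that follow are a description. The edgeR estimates were -1.87 ± 0.52 for Iigp1, -1.31 ± 0.38 for Gbp4, -1.06 ± 0.41 for Irgm1, -0.88 ± 0.33 for Gbp7, -0.86 ± 0.61 for Gbp5 and -0.79 for both Gbp9 (± 0.40) and Irgm2 (± 0.58), with 0 genes called (0.0%), 709 genes lower at an unadjusted p under 0.05 (7.33%, with 4 of the 7 members) and 83 (0.858%) called by DESeq2.

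Fibroblast-like nuclei had summed means of 95.4 ± 57.1 (SD, n = 4) and 42.7 ± 13.1 CPM (SD, n = 4), with 6 members tested. Macrophage-like nuclei summed to 183.1, 171.9, 113.2 and 42.4 CPM in untreated and 51.2, 63.2, 49.0 and 266.2 CPM in Minnelide tumors, where the last value came from 75 nuclei, and only Iigp1 and Gbp7 passed the filter on low counts. In both fits 0 genes (0.0%) passed in edgeR, with 343 (2.98%) and 257 (3.11%) genes lower at an unadjusted p under 0.05, among them 3 of 6 and 1 of 2 members, and 15 (0.13%) and 0 (0.0%) called by DESeq2. Here too the contrast chose the members, and the counts are a description.

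Whether the group difference itself varied between classes was tested as an interaction (edgeR, tumor as a block). Against tumor-like nuclei, the difference in endothelial-like nuclei differed for 1 of 12639 genes (0.00791%) and for 0 members. That gene, Nxph1, was named after its value was seen (log2 3.71 ± 0.41, adjusted p = 0.0312). In this interaction 871 genes (6.89%) had an unadjusted p under 0.05. Member estimates ran from -0.05 ± 0.52 for Irgm1 to 1.896 ± 0.97 for Gbp5, and 0 of them had an unadjusted p under 0.05, while DESeq2 called 3 genes (0.0237%) and 0 members. For macrophage-like nuclei 0 of 12797 genes (0.0%) passed, 735 (5.74%) had an unadjusted p under 0.05 and DESeq2 called 3 (0.0234%). Gbp5 (3.13 ± 1.25, adjusted p = 0.777) and Igtp (2.00 ± 0.89, adjusted p = 0.852) were the 2 members with an unadjusted p under 0.05. A difference in response between classes passed the test for 0 of the 10 genes, which does not show that the classes responded alike.

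The share of nuclei with at least 1 UMI of any member, after thinning each nucleus to 1000 UMIs and leaving out shallower ones, averaged 12.2% in endothelial-like nuclei (4.76 to 23.8% over 8 tumors) and 3.32% in tumor-like nuclei (1.31 to 12.2%). Between them were pericyte-like (8.58%), myocyte-like (7.98%), macrophage-like (7.65%), fibroblast-like (5.42%) and osteoclast-like nuclei (4.68%), and T/NK-like nuclei of untreated tumor 1 stood at 23.8% (19 of 80). Shallower nuclei numbered 6649 of 37277 tumor-like nuclei, 5773 of them in untreated tumor 4. Without untreated tumor 1 the tumor-like mean was 2.05%. Untreated tumors averaged 16.2% and Minnelide tumors 8.32% of endothelial-like nuclei, and 4.96% and 1.67% of tumor-like nuclei, where the untreated mean was 2.55% without untreated tumor 1. Without thinning, the shares averaged 30.2% at a mean median depth of 3098 UMIs in endothelial-like and 12.0% at 2924 UMIs in tumor-like nuclei, or 6.54% without untreated tumor 1. No class lacked these transcripts, and the part of free RNA in the shares was not tested.

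The rest of the pathway was read from lists of genes chosen with earlier results of these data known. In Minnelide against untreated over all nuclei, 0 genes of any list passed in edgeR. The induction arm begins with the ligands, of which 2 of 8 were measurable. Il18, a cytokine that elicits interferon gamma, had a log2 estimate of -1.81 ± 0.39 and Il12a, a subunit of another such cytokine, of -2.14 ± 0.85. Ifng itself was close to absent, with 8, 0, 0 and 1 UMIs in untreated and 0, 2, 0 and 0 UMIs in Minnelide tumors, and 6 of the 8 UMIs in untreated tumor 1 were in tumor-like nuclei. Ifnb1 had 0 UMIs in every tumor, and a count of 0 in all nuclei allows up to 0.0480 to 0.188 CPM.

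Among receptors and their kinases, 6 of 7 estimates lay below 0 with a median of -0.23, and 0 had an unadjusted p under 0.05. Ifngr1, a chain of the interferon gamma receptor, read -1.37 ± 0.60 and Ifngr2, its partner, 0.14 ± 0.24. Tyk2 read -0.29 ± 0.13. The transcription factors lay lower, with 10 of 10 below 0, a median of -0.76 and 7 at an unadjusted p under 0.05. Of all genes, 49.3% lay below 0 and 7.49% were lower at an unadjusted p under 0.05. The lists are not given without untreated tumor 1. Irf1, an interferon-induced transcription factor, had 40.1, 22.7, 20.6 and 17.2 CPM in untreated tumors against 11.1, 7.54, 16.0 and 15.6 CPM in Minnelide tumors, with no overlap (-0.83 ± 0.31). The same order without overlap was found for 6.93% of all genes. Ciita, the switch for MHC class II genes, read -1.30 ± 0.29 and Stat2, of the type I interferon arm, -0.70 ± 0.16.

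Brakes on the pathway had a median of -0.44, with 7 of 7 below 0 and 1 lower at an unadjusted p under 0.05. The shares of all genes were 49.3% and 7.49%. Usp18, which blocks the type I receptor, read -1.57 ± 0.44 and Socs3 -0.74 ± 0.40. Socs1, the feedback inhibitor of the interferon gamma receptor, had 6.28, 8.59, 4.28 and 3.0 CPM in untreated and 3.47, 3.95, 2.40 and 5.05 CPM in Minnelide tumors, which overlapped (-0.42 ± 0.37). Of the other IRG and GBP genes, 9 of 24 listed had a feature and 5 were tested, with 3 at an unadjusted p under 0.05 and a median of -1.08. Gbp8 read -1.43 ± 0.44 and Gbp6 -1.61 ± 0.57, while Irgq, a family member that is not known as interferon-inducible, read 0.16 ± 0.20.

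Other interferon gamma targets had a median of -1.14, with 13 of 14 below 0 and 6 at an unadjusted p under 0.05. Parp14 read -1.20 ± 0.29 and the chemokine Cxcl10 -1.89 ± 0.53, and Psmb8, an immunoproteasome subunit, 0.26 ± 0.34. Inflammasome partners of the GBP had a median of -0.92, with 8 of 8 below 0 and 5 at an unadjusted p under 0.05, among them the DNA sensor Aim2 (-1.04 ± 0.31) and the pore protein Gsdmd (-1.03 ± 0.37). The ATG8 conjugation machinery, which IRG and GBP need to find their membranes, lay nearest to the median of all genes with -0.14 and 1 of 10 at an unadjusted p under 0.05. Atg3 read -0.41 ± 0.14, Gabarapl2 -0.25 ± 0.22, Atg5 0.03 ± 0.13 and Atg16l1 0.02 ± 0.12. For comparison 49.3% of all genes lay below 0. An unadjusted p under 0.05 was found for 9.96% of all genes in either direction and for 7.49% in the lower direction.

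**Figure D5:**
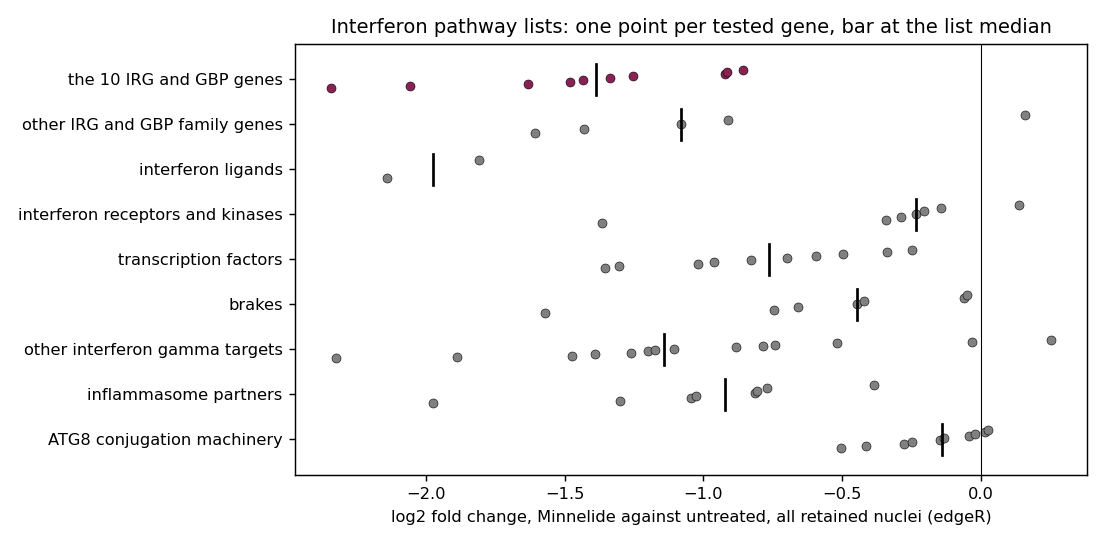
Log2 fold change, Minnelide against untreated in all retained nuclei (edgeR), with 1 point per tested gene and a bar at the median of each list. The 10 IRG and GBP genes lie between -2.34 and -0.86 with a median of -1.39, while the ATG8 machinery has a median of -0.14.

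The pathway was also compared between classes. In endothelial-like against tumor-like nuclei, 8 of 9 transcription factors tested were higher and 1, Ciita, lower (-1.23 ± 0.32, adjusted p = 0.00780). Irf1 was higher by 1.08 ± 0.22 on the log2 scale, and 5 of 7 receptors and kinases and 5 of 5 other IRG and GBP genes were higher too, beside the 22.4% of all genes called higher. Inflammasome partners were higher for 4 of 7, other interferon gamma targets for 5 of 13 with 1 lower, the ATG8 machinery for 3 of 10 and brakes for 2 of 7 with 1 lower, while both ligands tested were lower. In macrophage-like nuclei 10 of 10 transcription factors and 8 of 8 inflammasome partners were higher, Ciita by 4.02 ± 0.39, beside 17.8% of all genes. So were 6 of 7 receptors and kinases, 9 of 13 other interferon gamma targets, 3 of 5 other IRG and GBP genes, 4 of 7 brakes, 2 of 3 ligands and 1 of 10 genes of the ATG8 machinery. In fibroblast-like nuclei 5 of 9 transcription factors were higher, and the brake Socs1 was higher by 1.07 ± 0.16. Here 23.5% of all genes were called higher. Of the other lists, 3 of 8 inflammasome partners, 4 of 10 genes of the ATG8 machinery, 4 of 7 brakes (1 lower), 3 of 7 receptors and kinases (1 lower), 1 of 6 other IRG and GBP genes and 1 of 2 ligands (1 lower) were higher, and other interferon gamma targets were split, with 3 of 14 higher and 3 lower.

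Over the 54 sums of a tumor and a class, the genes whose log2(CPM + 1) was most like the mean of the members were Slfn5 (Pearson r = 0.817), Nod1 (0.783), Tapbp (0.766), H2-Q4 (0.7495) and Tdrd7 (0.745), among 9700 genes. Slfn5 is an interferon-inducible Schlafen gene, and Tapbp and H2-Q4 belong to MHC class I presentation. Members followed the mean of the other 9 with r from 0.522 (Irgm2) to 0.780 (Irgm1). These points share tumors and libraries and differ in depth, so the correlations are descriptions.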

How the data were processed

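Nuclei of 8 tumors were profiled by droplet single-nucleus RNA sequencing (Chromium 3′ kit with on-chip multiplexing). The authors deposited UMI counts per gene and nucleus, aligned to mm39 with intronic reads; the submitters' notes name Cell Ranger 7.0.1 and bcl2fastq 2.20, and the matrix header Cell Ranger 9.0.1. The annotation counted is not given in the sources used here. The members and gene lists were chosen with earlier results of these data known.

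From the deposited counts, nuclei under 200 genes, with a compromised-nucleus posterior over 0.75 (a mixture of mitochondrial percent and genes) or called doublets (0.8% expected per 1000 nuclei) were left out. Counts were clustered in scanpy 1.11.5 (2000 variable genes without the members and interferon lists, 30 components, 40 neighbors, Leiden resolution 1). A cluster was named from at least 3 markers, and clusters with markers of a second class were clustered again. These naming choices were set after the clusters were seen and before the members' values were. Counts were summed per tumor and class of at least 50 nuclei and scaled to CPM.

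Genes passing filterByExpr were tested in edgeR 4.0.16 (quasi-likelihood test, TMM, Benjamini-Hochberg, R 4.3.3), with tumor as a block between classes. The SE of an edgeR estimate was derived from the test, as the absolute log2 fold change divided by the square root of its F statistic. In the group contrasts p-values measure the spread between these tumors. With tumor as a block they measure how the difference between classes varies over these tumors. Floors (3 counts) cover counting error only. Members passing the filter numbered 10 in all and tumor-like nuclei, 6 in fibroblast-like, 7 in endothelial-like and 2 in macrophage-like nuclei. Alternatives were DESeq2 1.42.0, other size factors, filters and doublet settings, stricter naming and each tumor left out. The edgeR fit was tried first on simulated counts for the tumor-like group contrast, the endothelial-like against tumor-like contrast and its interaction. The other contrasts and DESeq2 were not tried in this way. The simulated counts had the same dispersion for every gene and no tumor set apart, unlike these data. They therefore do not show how the fit behaves here, and their outcome is not given. All members were named, and of each list at most 2 genes per direction with the lowest unadjusted p, plus Ifng, Irf1 and Socs1 and a further gene that is not reported here. Gene positions came from GENCODE M39, matched by gene identifier for 19043 of 19059 features, and promoters from RefSeq, matched by symbol. Protein sequences were not used here.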

Additional observations from a re-analysis of the deposited data

Results flagged for a closer look

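Among 74 groups of 4 tumors examined, 14 held a tumor set apart from the other 3 (Dixon's test at 95%, which chance passes in about 1 of 20 groups). In tumor-like nuclei 8 of these concerned untreated tumor 1. There Iigp1 stood at 35.8 CPM against 6.41 to 7.68 in the other untreated tumors, Irgm2 at 19.3 against 2.59 to 5.05 and Gbp7 at 23.3 against 4.00 to 6.76. Gbp2 read 7.001 against 1.48 to 1.81 CPM, Gbp3 6.51 against 0.761 to 1.67, Gbp5 14.0 against 1.52 to 2.41 and Gbp9 10.5 against 1.84 to 2.96. The summed level was 138.8 CPM against 26.7 to 32.8.

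The remaining flags were spread over tumors. Igtp in all nuclei of Minnelide tumor 4 read 1.38 CPM against 0.659 to 0.769 in the other Minnelide tumors, and Gbp9 in tumor-like nuclei of Minnelide tumor 2 read 2.17 against 1.51 to 1.61 CPM. The summed level was 629.8 CPM in myocyte-like nuclei of untreated tumor 2 against 91.4 to 96.9, and 136.9 CPM in osteoclast-like nuclei of untreated tumor 1 against 28.7 to 38.1. In Minnelide tumor 4 it was 62.3 CPM in fibroblast-like nuclei against 35.2 to 37.9, and 266.2 CPM in macrophage-like nuclei against 49.0 to 63.2.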

How the results depend on the processing

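For Minnelide against untreated, 0 genes were called, and DESeq2 called 181 in all nuclei, 103 in tumor-like, 15 in fibroblast-like and 83 in endothelial-like nuclei. Stricter naming gave 1 in endothelial-like nuclei and could not be fitted for the other classes, the contrasts between classes and the interactions, as it left too few nuclei in them. Leaving out 1 tumor gave 0 to 1 in all and in endothelial-like nuclei and 0 elsewhere. The log2 ratio of the summed CPM, with 1 tumor left out, ran from -1.90 to -1.25 in all nuclei, from -2.08 to -0.92 in tumor-like (lowest in size without untreated tumor 1), from -1.44 to -0.88 in fibroblast-like, from -1.49 to -0.96 in endothelial-like and from -1.23 to -0.01 in macrophage-like nuclei, where the main value was -0.25 and Minnelide tumor 4 set it. Without untreated tumors 1 and 4, a setting added after seeing the data, the tumor-like value was -1.01. Every member with a main estimate kept it below 0 in all settings run; with no filter on low counts, macrophage-like nuclei also gave estimates above 0 for Gbp5 (0.21), Gbp9 (0.13) and Igtp (0.26), which had no main estimate.

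Between classes, 5623 (endothelial-like), 4970 (macrophage-like) and 6652 (fibroblast-like) calls became 2510, 2633 and 3736 without the tumor block, and 5003 to 5812, 4335 to 4807 and 5820 to 7149 with 1 tumor left out. Without the block, members called fell from 10 to 5 of 6 tested in endothelial-like, from 8 to 2 of 5 in macrophage-like and from 6 to 0 of 9 in fibroblast-like nuclei. Reversed estimates were Gbp4 in macrophage-like nuclei (-0.066 without doublet removal, -0.054 to 0.37 with 1 tumor left out, the lowest without Minnelide tumor 4) and, in fibroblast-like nuclei, Gbp4 (-0.38 to 0.21 with 1 tumor left out: 0.21 without untreated tumor 1, 0.08 without untreated tumor 4, 0.19 without Minnelide tumor 2, 0.41 without untreated tumors 1 and 4) and Gbp9 (0.015 in the last setting). The cause was not tested. The endothelial-like interaction gave 3 genes with DESeq2 and 0 without untreated tumors 1 and 4 (0 to 1 with 1 tumor left out). The macrophage-like one gave 3 with DESeq2, 1 with no filter on low counts and 0 to 14 with 1 tumor left out, 14 without untreated tumor 3. No member was called in either. Tumor numbers are only names, and the labels pair no tumors. A setting added after seeing the data took the tumors that shared barcodes as a block. They have barcode bases 8 and 9 in common and no known run or pairing, so this edgeR fit checks no paired design. It called 0 genes for all, tumor-like, fibroblast-like, endothelial-like and macrophage-like nuclei. Members at an unadjusted p under 0.05 went from 8 to 4 of 10 in all nuclei (median -1.27). In tumor-like nuclei they went from 8 to 3 of 10 (median -1.28).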
